A study of Mus musculus with 10 samples.

Results

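The genes described are 10 components of transforming growth factor beta (TGF-beta) signalling in mouse pancreas. They are the ligand genes Tgfb1, Tgfb2 and Tgfb3, the receptor genes Tgfbr1 and Tgfbr2, the signal-carrying Smad2, Smad3 and Smad4, the inhibitory Smad7, and Tgfbi, a gene named for its induction by TGF-beta. They were taken by symbol from a table of raw read counts holding 24421 genes. The list was made with earlier results of these data known. All 10 were among the 13688 genes with enough counts to test. RNA was sequenced from a piece of the pancreas tail of 10 female mice aged 12 weeks, with 1 library per mouse. The groups differ in the insulin receptor gene Insr. Insr WT mice (Insrw/w, 3 libraries) had 0 floxed alleles, Insr Het mice (Insrw/f, 3 libraries) had 1 and Insr KO mice (Insrf/f, 4 libraries) had 2. Every group carried Ptf1aCreER, a Cre recombinase made inducible by fusion to an oestrogen receptor domain and under control of Ptf1a, a transcription factor gene of enzyme-secreting acinar cells, and the nuclear fluorescent reporter nTnG. Cells that do not use Ptf1a, such as stroma and immune cells, would keep their Insr alleles. The series title asks how acinar insulin receptors bear on digestive enzymes and inflammation.

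TGF-beta ligands are secreted in a latent complex and act once released from it. The active ligand binds the type II receptor Tgfbr2, which recruits and phosphorylates the type I receptor Tgfbr1, and this kinase phosphorylates Smad2 and Smad3, which enter the nucleus with the shared partner Smad4. In the pancreas the pathway is known for driving matrix production by stellate cells and fibroblasts in injury and fibrosis, and for restraining epithelial growth, while Smad7, itself a target, blocks the receptor.

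Gene counts ran from 11718559 in WT-1860 to 19024351 in Het-2042, and the members' own counts from 19 to 5455 per library. Levels are given as CPM, counts as a rate of the library's total after TMM scaling, which corrects for the share of a library taken by a few abundant genes. The library WT-2404 stands apart: 32 digestive enzyme genes held 15.7% of its gene counts, against 58.3% and 71.4% in the other WT libraries and 62.3% to 77.3% in the Het and KO libraries, and its TMM factor was 3.54 against 0.596 in KO-2126. In enzyme share WT-1860 also lay below every Het and KO library, so of the WT libraries only WT-2067 was within their range. All 12 acinar marker genes had counts in every library. Insr itself stood at 21.0 to 40.5 CPM in WT, 28.2 to 44.2 CPM in Het and 22.7 to 35.5 CPM in KO, so the groups overlapped. Counts summed over a whole gene cannot check the deletion of some of its exons.

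Tgfb1, Tgfb3, Tgfbr1, Tgfbr2 and Tgfbi had lower levels on average in the Het and KO libraries than in WT, by 1.63-fold to 2.78-fold. Of these, Tgfbr2 still overlapped between the 3 groups, as did Tgfb2, Smad2 and Smad4. For Smad3 and Smad7, Het lay below WT and KO overlapped WT. No member passed the main test, edgeR's quasi-likelihood test with Benjamini-Hochberg adjustment over all genes at 0.05, in any comparison. In KO against WT, 0 of 10 members and 0% of all genes passed, with a smallest adjusted p of 0.116 and 3222 genes at an unadjusted p under 0.05. At that unadjusted threshold 5 of 10 members (Tgfb1, Tgfb3, Tgfbr1, Tgfbr2 and Tgfbi) were lower in KO and 0 higher, against 13.9% of all genes lower. Without WT-2404 they were 3, Tgfb1, Tgfbr1 and Tgfbi, against 5.29% of all genes. Without WT-2067 edgeR's adjusted test called Tgfb1, Tgfbr1, Tgfbr2 and Tgfbi lower, 4 members against 7.42% of all genes. For 4 members, Tgfb1, Tgfb3, Tgfbr1 and Tgfbi, every KO library lay below every WT library, against 9.15% of all genes. The 10 members had a median log2 fold change of -0.61 and all genes a median of 0.03. DESeq2's Wald test called 3 members lower, against 5.27% of all genes. They were Tgfb1 (adjusted p 0.00735), Tgfbr1 (adjusted p 0.00536) and Tgfbi (adjusted p 0.0199).

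In Het against WT, 0 of 10 members and 0% of all genes passed edgeR's test, with a smallest adjusted p of 0.184 and 2715 genes at an unadjusted p under 0.05. Unadjusted, 6 members were lower in Het, the same 5 and Smad3, against 11.6% of all genes. Without WT-2404 they were 4, Tgfb1, Tgfbr1, Smad3 and Tgfbi, against 3.61% of all genes. Without Het-2066 they were 3, Tgfb1, Tgfbr1 and Tgfbi, against 6.56% of all genes. Without WT-2067 the adjusted test called 2 members, Tgfb1 and Tgfbi, against 4.03% of all genes. For 6 members (Tgfb1, Tgfb3, Tgfbr1, Smad3, Smad7 and Tgfbi) every Het library lay below every WT library, against 13.5% of all genes. The members' median log2 fold change was -0.59, and that of all genes 0.0046. DESeq2 called Tgfb1, Tgfbr1 and Tgfbi lower, 3 members against 1.93% of all genes. KO against WT and Het against WT use the same WT libraries, so their likeness is no independent result.

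KO was compared with Het in the same fit over all 10 libraries. Of the 10 members 0 passed, 0% of all genes passed, edgeR's smallest adjusted p was 1.0 and 103 genes had an unadjusted p under 0.05. DESeq2 likewise called 0 members. Smad3 alone of the members was at an unadjusted p under 0.05, higher in KO, against 0.402% of all genes higher. For the other 9 the log2 fold change lay between -0.27 and 0.09. Intervals of 2 SE to either side still allow sizeable differences, for Tgfb1 from -0.57 to 0.74 and for Tgfbi from -0.74 to 0.73, so a second floxed allele is not shown to leave these genes alike.

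The 7 libraries with a floxed allele, Het and KO together, were also compared with WT as the mean of the Het and KO coefficients minus WT. No member passed and 0% of all genes did, although 3868 genes had an unadjusted p under 0.05. The smallest adjusted p over all genes was 0.0597, and Tgfb1, Tgfbr1 and Tgfbi were at that value, which many genes shared. By unadjusted edgeR p, Tgfb1 ranked 21, Tgfbr1 64 and Tgfbi 285 among the 13688 genes. Unadjusted, Tgfb1, Tgfb3, Tgfbr1, Tgfbr2 and Tgfbi were lower, 5 of 10 members against 16.5% of all genes. DESeq2 called these 5 members, against 8.5% of all genes. In 4 of them, all but Tgfbr2, every floxed library lay below every WT library, against 5.84% of all genes. Without WT-2404 edgeR's unadjusted count was 3 (Tgfb1, Tgfbr1 and Tgfbi), against 6.33% of all genes. Without WT-2067 the adjusted test called all 5, against 11.1% of all genes. It called Tgfb1, Tgfbr1 and Tgfbi without KO-2124, 3 members against 2.92% of all genes, and Tgfb1 alone without KO-2079, against 0.352% of all genes. Whether fewer cells of a type or less RNA per cell lowers a level cannot be told apart in bulk tissue.

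**Figure D1:**
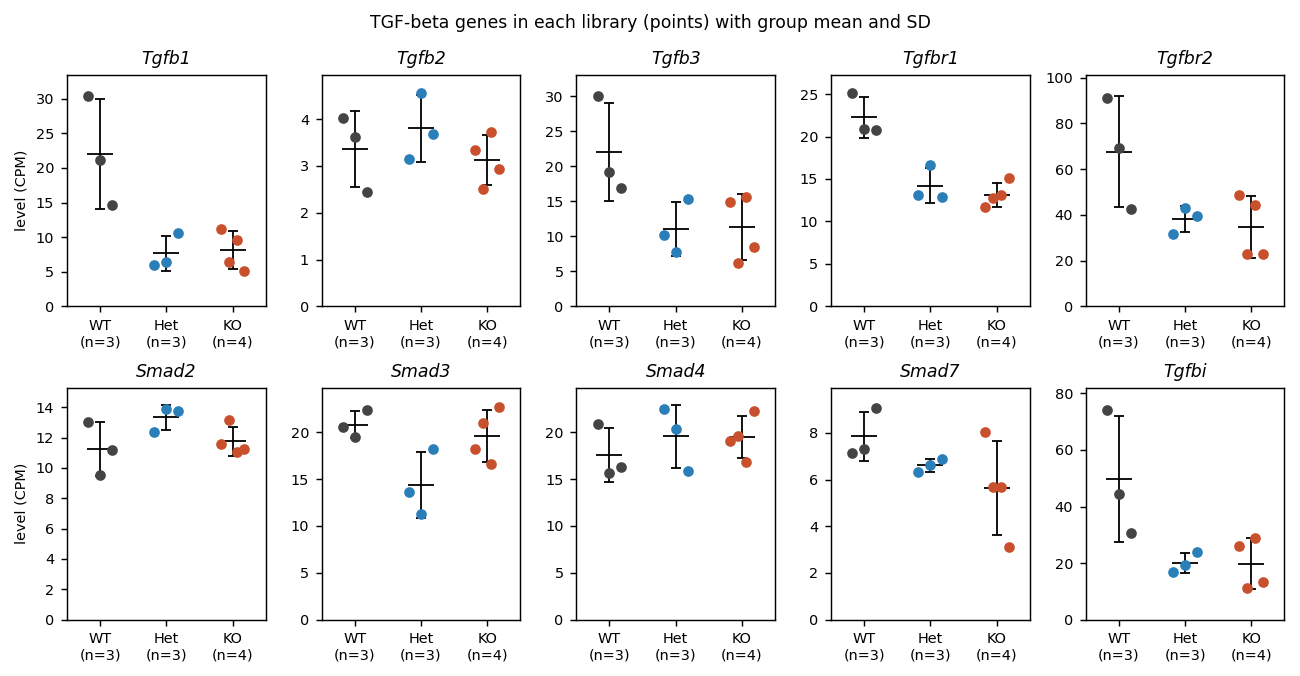
Level of each gene in CPM (vertical axis, from 0) in each library (points), with the mean and SD of the 3 WT, 3 Het and 4 KO libraries (bars). For Tgfb1, Tgfb3, Tgfbr1 and Tgfbi all Het and KO points lie below all WT points, and for Tgfb2, Tgfbr2, Smad2 and Smad4 the groups overlap.

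**Figure D2:**
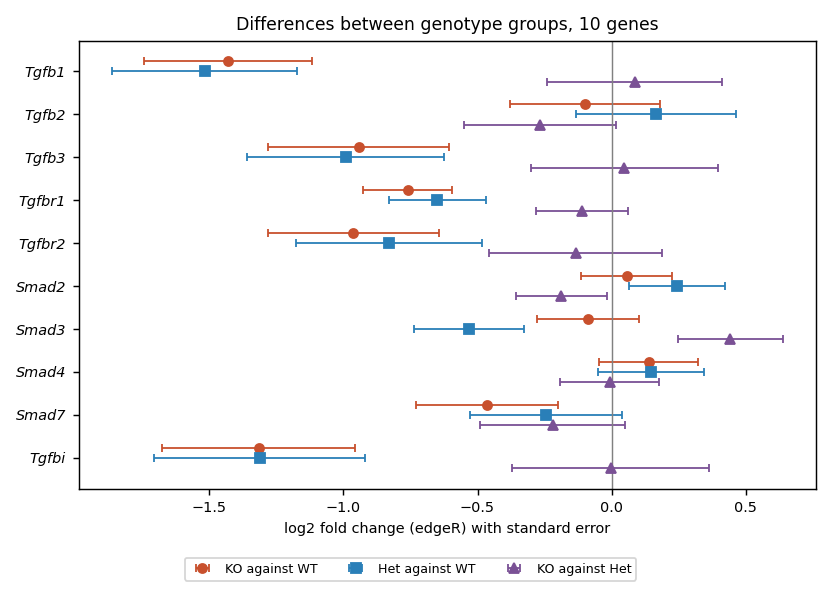
The log2 fold change from edgeR (horizontal axis) with its standard error for each gene in KO against WT, Het against WT and KO against Het. Tgfb1 and Tgfbi lie farthest below 0 in both comparisons with WT, and all members except Smad3 lie between -0.27 and 0.09 in KO against Het.

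Tgfb1 encodes the ligand most often linked to fibrosis and immune restraint. The gene lies on chromosome 7 (25687002 to 25705077, + strand, GRCm38/mm10). Its level was 30.3 CPM in WT-2404, 21.1 CPM in WT-1860 and 14.6 CPM in WT-2067, then 5.97 CPM in Het-2066, 6.43 CPM in Het-1770 and 10.6 CPM in Het-2042, and 11.1 CPM in KO-2079, 6.46 CPM in KO-2070, 9.64 CPM in KO-2124 and 5.16 CPM in KO-2126. All 7 floxed libraries were below the lowest WT library, WT-2067. The group means were 22.0 ± 7.89 CPM (SD, n = 3) in WT, 7.67 ± 2.56 CPM (SD, n = 3) in Het and 8.09 ± 2.76 CPM (SD, n = 4) in KO. The edgeR log2 fold change was -1.43 (SE 0.31, adjusted p 0.116) in KO against WT, -1.52 (SE 0.35, adjusted p 0.184) in Het against WT and -1.47 (SE 0.27, adjusted p 0.0597) for both against WT. Without WT-2404 the last value was -1.15 (adjusted p 0.403), and without WT-2067 it was -1.69 (adjusted p 0.009). Tgfb1 also passed edgeR's test without KO-2079 (adjusted p 0.0471) and without KO-2124 (adjusted p 0.0498).

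Tgfb3, a ligand best known for palate and lung development, was separate between the groups by a narrower gap. The gene lies on chromosome 12 (86056745 to 86079041, - strand) and overlaps Ttll5 on the other strand. Ttll5 had at most 313 counts in a library, and whether counting used strand is not given in the sources used here, so some reads of either gene could be counted for the other. Tgfb3 stood at 30.0 CPM in WT-2404, 19.3 CPM in WT-1860 and 16.9 CPM in WT-2067, at 10.2 CPM in Het-2066, 7.74 CPM in Het-1770 and 15.3 CPM in Het-2042, and at 15.0 CPM in KO-2079, 6.19 CPM in KO-2070, 15.7 CPM in KO-2124 and 8.49 CPM in KO-2126. No Het or KO library reached the WT range, but KO-2124 came within little of WT-2067. The log2 fold change for Het and KO against WT was -0.97 (SE 0.30, adjusted p 0.0766, edgeR), without WT-2404 -0.66 (adjusted p 0.462) and without WT-2067 -1.12 (adjusted p 0.0371). In KO against WT it was -0.94 (SE 0.34, adjusted p 0.141) and in Het against WT -0.99 (SE 0.37, adjusted p 0.199).

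Tgfb2, a ligand of epithelia and of the developing heart and eye, had the lowest counts of the members. It lies on chromosome 1 (186622792 to 186705989, - strand). Its level was 4.03 CPM in WT-2404, 3.61 CPM in WT-1860 and 2.45 CPM in WT-2067, then 3.16 CPM in Het-2066, 4.57 CPM in Het-1770 and 3.68 CPM in Het-2042, and 3.34 CPM in KO-2079, 2.50 CPM in KO-2070, 3.73 CPM in KO-2124 and 2.93 CPM in KO-2126. The 3 groups overlapped, with Het-1770 above every WT and KO library, and the lowest value was in WT. The edgeR log2 fold change for Het and KO against WT was 0.03 (SE 0.25, adjusted p 0.944), with 2 SE to either side reaching from -0.47 to 0.54.

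The balance between the ligands was measured within each library as the log2 ratio of their counts, with 0.5 added to each, which does not depend on scaling. In all, 4 such pairs of members were tested with an exact permutation test over mice, two-sided, 7 floxed against 3 WT libraries, whose 120 splits allow a smallest p of 0.00833. The ratio of Tgfb2 to Tgfb1 was -2.91 in WT-2404, -2.56 in WT-2067 and -2.54 in WT-1860. It was -0.91 in Het-2066, -0.49 in Het-1770, -1.52 in Het-2042, -1.73 in KO-2079, -1.34 in KO-2070, -1.36 in KO-2124 and -0.80 in KO-2126. Every floxed library had relatively more Tgfb2 than every WT library. The mean was -2.67 ± 0.21 (SD, n = 3) in WT, -0.97 ± 0.52 (SD, n = 3) in Het and -1.31 ± 0.38 (SD, n = 4) in KO. The difference of 1.51 between floxed and WT had the smallest exact p the test can give, 0.00833, and 0.0333 after adjustment over the 4 ratios. It was 1.39 without WT-2404, where 7 against 2 libraries allow no exact p under 0.0278 (adjusted 0.111). This ratio was the call among the members that passed its test, and of its 2 genes Tgfb1 had separate ranges and Tgfb2 did not. Their edgeR log2 fold changes in Het and KO against WT were -1.47 and 0.03. The ratio thus follows the lower Tgfb1 level and is no separate result on Tgfb2. Its adjustment covers 4 pairs of members that were chosen with earlier results known, not all genes. The share of other gene pairs reaching the smallest p was not measured. The ratio of Tgfb3 to Tgfb1 was 0.02 ± 0.17 (SD, n = 3) in WT, 0.52 ± 0.25 (SD, n = 3) in Het and 0.45 ± 0.36 (SD, n = 4) in KO. The difference of 0.46 did not pass (exact p 0.05, adjusted 0.1), and KO-2070 lay within the WT range.

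**Figure D3:**
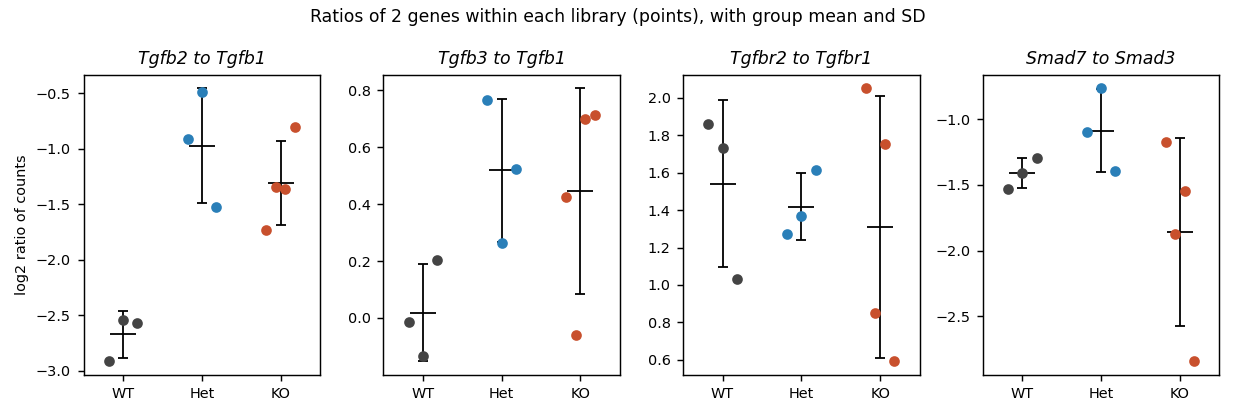
The log2 ratio of counts of 2 genes in the same library (vertical axis, a separate scale in each panel) for each library (points), with group mean and SD. In the panel of Tgfb2 to Tgfb1 the WT libraries lie at or below -2.54 and all others at or above -1.73, and in the panels of the receptors and of Smad7 to Smad3 the groups overlap.

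The 250 bases upstream of the start of Tgfb1 and Tgfb2 are shown as a description. They are from RefSeq on GRCm38.p6, read 5′ to 3′ on the gene's strand. The Tgfb1 window is chr7:25686752-25687001 (+ strand) and the Tgfb2 window chr1:186705990-186706239 (- strand). Capitals mark matches on either strand to the SMAD box letters CAGAC, the AP-1 element TGANTCA, the GC box GGGCGG and the TATA box TATAAA, with no bases shared between motifs.
Tgfb1: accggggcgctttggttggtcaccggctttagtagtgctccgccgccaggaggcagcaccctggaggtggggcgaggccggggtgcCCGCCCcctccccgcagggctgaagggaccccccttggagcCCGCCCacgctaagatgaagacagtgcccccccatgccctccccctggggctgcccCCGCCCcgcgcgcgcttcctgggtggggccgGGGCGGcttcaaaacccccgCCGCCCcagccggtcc
Tgfb2: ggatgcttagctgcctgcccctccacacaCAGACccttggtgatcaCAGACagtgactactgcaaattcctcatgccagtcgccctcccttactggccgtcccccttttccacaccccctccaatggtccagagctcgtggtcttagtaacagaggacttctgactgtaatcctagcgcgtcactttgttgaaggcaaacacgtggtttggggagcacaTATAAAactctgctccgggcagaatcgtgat
The Tgfb1 window was 75.2% G and C and held 5 GC boxes, 0 CAGAC and 0 TATAAA. The Tgfb2 window was 53.6% G and C and held 0 GC boxes, 2 CAGAC and 1 TATAAA. Over all 32851 windows of this length, with a median of 52.4% G and C, 32.7% held a GC box, 42.2% a CAGAC, 12.4% a TATAAA and 6.75% a TGANTCA. Windows were found for 6 of the 10 members, 7 in all, since Tgfbr1 had 2, and TGANTCA was in 0 of them. Smad3 had 2 GC boxes, Tgfbi had 1 and Tgfbr2 had 0. These are matches of letters and say nothing of binding.

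Tgfbr1, the type I receptor kinase, varied least within groups among the members with separate ranges. It lies on chromosome 4 (47353222 to 47414931, + strand). Its level was 25.1 CPM in WT-2404, 20.9 CPM in WT-1860 and 20.8 CPM in WT-2067, then 13.2 CPM in Het-2066, 16.6 CPM in Het-1770 and 12.9 CPM in Het-2042, and 11.7 CPM in KO-2079, 12.8 CPM in KO-2070, 13.1 CPM in KO-2124 and 15.1 CPM in KO-2126. The highest floxed library, Het-1770, lay below the lowest WT library. The means were 22.2 ± 2.45 CPM (SD, n = 3), 14.2 ± 2.06 CPM (SD, n = 3) and 13.2 ± 1.41 CPM (SD, n = 4) in WT, Het and KO. The log2 fold change from edgeR was -0.76 (SE 0.17, adjusted p 0.116) in KO against WT, -0.65 (SE 0.18, adjusted p 0.184) in Het against WT and -0.71 (SE 0.15, adjusted p 0.0597) for both. Without WT-2404 the last was -0.60 (adjusted p 0.403), without WT-2067 -0.75 (adjusted p 0.0158) and without KO-2124 -0.71 (adjusted p 0.0498).

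Tgfbr2, the type II receptor that binds the ligand, varied more than Tgfbr1 between the mice of the WT and KO groups and about as much between the Het mice. The gene lies on chromosome 9 (116084293 to 116175360, - strand). It stood at 91.2 CPM in WT-2404, 69.4 CPM in WT-1860 and 42.5 CPM in WT-2067, at 31.8 CPM in Het-2066, 42.9 CPM in Het-1770 and 39.6 CPM in Het-2042, and at 48.5 CPM in KO-2079, 23.1 CPM in KO-2070, 44.1 CPM in KO-2124 and 22.7 CPM in KO-2126. The groups overlapped, since WT-2067 lay below Het-1770, KO-2079 and KO-2124. The log2 fold change of Het and KO against WT was -0.90 (SE 0.28, adjusted p 0.0780, edgeR), -0.60 without WT-2404 (adjusted p 0.462) and -1.14 without WT-2067 (adjusted p 0.018). In KO against WT it was -0.96 (SE 0.32, adjusted p 0.127) and in Het against WT -0.83 (SE 0.35, adjusted p 0.220). The log2 ratio of Tgfbr2 to Tgfbr1 was 1.54 ± 0.45 (SD, n = 3) in WT, 1.42 ± 0.18 (SD, n = 3) in Het and 1.31 ± 0.70 (SD, n = 4) in KO. The difference between floxed and WT of -0.18 was smaller than the spread between libraries (exact permutation p 0.608, adjusted 0.8).

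Smad3, which carries the signal to DNA, had a lower mean in Het than in both other groups. It lies on chromosome 9 (63646767 to 63757994, - strand). Its level was 20.6 CPM in WT-2404, 19.5 CPM in WT-1860 and 22.4 CPM in WT-2067, then 13.6 CPM in Het-2066, 11.3 CPM in Het-1770 and 18.2 CPM in Het-2042, and 18.2 CPM in KO-2079, 20.9 CPM in KO-2070, 16.6 CPM in KO-2124 and 22.7 CPM in KO-2126. Het lay below WT without overlap, KO overlapped WT, and Het-2042 lay within the KO range. The log2 fold change was -0.53 (SE 0.21, p 0.0233, adjusted p 0.203, edgeR) in Het against WT, 0.44 (SE 0.20, p 0.0419, adjusted p 1.0) in KO against Het and -0.09 (SE 0.19, adjusted p 0.803) in KO against WT. With a library left out, the value in KO against Het ran from 0.30 without Het-1770 (unadjusted edgeR p 0.186) to 0.65 without Het-2042 (p 0.00921). The unadjusted p was also above 0.05 without WT-2404 (0.0503), WT-1860 (0.0519), Het-2066 (0.108), KO-2070 (0.0859) and KO-2126 (0.104). In Het against WT the value ran from -0.74 without Het-2042 (p 0.00573) to -0.38 without Het-1770 (p 0.112), and the unadjusted p was 0.069 without Het-2066 and 0.0634 without WT-2067.

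Smad2 and Smad4 varied little. Smad2, the other receptor-regulated SMAD (chromosome 18, 76241580 to 76310963, + strand), stood at 13.1 CPM in WT-2404, 9.52 CPM in WT-1860 and 11.2 CPM in WT-2067, at 12.4 CPM in Het-2066, 13.9 CPM in Het-1770 and 13.8 CPM in Het-2042, and at 11.6 CPM in KO-2079, 13.2 CPM in KO-2070, 11.0 CPM in KO-2124 and 11.2 CPM in KO-2126. Smad4, the partner shared with the bone morphogenetic protein (BMP) branch (chromosome 18, 73639009 to 73703780, - strand), stood at 20.9 CPM in WT-2404, 15.6 CPM in WT-1860 and 16.2 CPM in WT-2067, at 22.5 CPM in Het-2066, 20.3 CPM in Het-1770 and 15.8 CPM in Het-2042, and at 19.1 CPM in KO-2079, 19.6 CPM in KO-2070, 16.8 CPM in KO-2124 and 22.2 CPM in KO-2126. For both genes the groups overlapped. From the lowest to the highest library Smad4 differed 1.44-fold and Smad2 1.46-fold, against 5.89-fold for Tgfb1. The edgeR log2 fold change of Het and KO against WT was 0.15 (SE 0.15, adjusted p 0.541) for Smad2, with 2 SE to either side reaching from -0.16 to 0.45. For Smad4 it was 0.14 (SE 0.17, adjusted p 0.599), reaching from -0.19 to 0.48.

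Smad7, the inhibitor that TGF-beta itself induces, lies on chromosome 18 (75367529 to 75395935, + strand). Its level was 7.14 CPM in WT-2404, 7.33 CPM in WT-1860 and 9.07 CPM in WT-2067, then 6.32 CPM in Het-2066, 6.62 CPM in Het-1770 and 6.88 CPM in Het-2042, and 8.04 CPM in KO-2079, 5.67 CPM in KO-2070, 5.67 CPM in KO-2124 and 3.13 CPM in KO-2126. Het lay just below WT, and KO reached from the WT range down to the lowest library, KO-2126. By edgeR the log2 fold change was -0.46 (SE 0.26, adjusted p 0.295) in KO against WT. It was -0.27 without KO-2126 and -0.69 without KO-2079, where the unadjusted edgeR p was 0.0217. In Het and KO against WT it was -0.35 (SE 0.24, adjusted p 0.337). The log2 ratio of Smad7 to Smad3 was -1.41 ± 0.11 (SD, n = 3) in WT, -1.09 ± 0.32 (SD, n = 3) in Het and -1.86 ± 0.71 (SD, n = 4) in KO, and floxed and WT libraries differed by -0.12 (exact permutation p 0.8, adjusted 0.8). Without KO-2126 that difference was 0.10.

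Tgfbi encodes a secreted matrix protein that binds integrins and collagen, and it was the most abundant member per kilobase. It lies on chromosome 13 (56609523 to 56639562, + strand). Its level was 74.2 CPM in WT-2404, 44.5 CPM in WT-1860 and 30.8 CPM in WT-2067, then 16.8 CPM in Het-2066, 19.5 CPM in Het-1770 and 23.9 CPM in Het-2042, and 26.0 CPM in KO-2079, 11.3 CPM in KO-2070, 28.8 CPM in KO-2124 and 13.2 CPM in KO-2126. The ranges were separate, with KO-2124 nearest to WT-2067. The means were 49.8 ± 22.2 CPM (SD, n = 3), 20.1 ± 3.63 CPM (SD, n = 3) and 19.9 ± 8.85 CPM (SD, n = 4) in WT, Het and KO. By edgeR the log2 fold change was -1.32 (SE 0.36, adjusted p 0.116) in KO against WT, -1.31 (SE 0.39, adjusted p 0.184) in Het against WT and -1.31 (SE 0.31, adjusted p 0.0597) for both. Without WT-2404 the last was -0.89 (adjusted p 0.403) and without WT-2067 it was -1.56 (adjusted p 0.0123). Without KO-2124 it was -1.43 (adjusted p 0.0498).

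Levels of different genes can be set side by side only per kilobase of exon, here of the joined exons of each gene in GENCODE M21. As the median over 10 libraries, Tgfbi stood at 9.21 CPM per kilobase, Smad4 at 5.42, Tgfbr2 at 5.22, Tgfb1 at 4.66, Tgfb3 at 4.47, Smad3 at 3.70, Tgfbr1 at 2.20, Smad7 at 1.54, Smad2 at 1.39 and Tgfb2 at 0.668. The middle of this order was not firm. Smad4 was above Tgfbr2 in 4 of 10 libraries, Tgfbr2 above Tgfb1 in 5, Smad7 above Smad2 in 6, and Tgfbi above Smad4 and Tgfb1 above Tgfb3 in 7. Tgfb3 was above Smad3 in 8, Smad3 above Tgfbr1 and Tgfbr1 above Smad7 in 9, and Smad2 above Tgfb2 in all 10. Per kilobase, Tgfb1 stood at 10.1 ± 3.63 CPM (SD, n = 3) and Smad4 at 4.92 ± 0.80 CPM (SD, n = 3) in WT, and in KO Tgfb1 stood at 3.72 ± 1.27 CPM (SD, n = 4) and Smad4 at 5.44 ± 0.63 CPM (SD, n = 4).

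Some members followed each other from library to library. Over the 10 libraries, which share the group difference and WT-2404, Pearson's r of log2 CPM was 0.97 between Tgfbi and Tgfbr2, 0.95 between Tgfbi and Tgfb1 and 0.95 between Tgfbi and Tgfb3. Without WT-2404 these were 0.95, 0.92 and 0.92. Smad4 ran the other way against Tgfb1, with r of -0.46, and -0.87 without WT-2404. Within the KO group, Tgfb1, Tgfb3, Tgfbr2 and Tgfbi were each higher in KO-2079 and KO-2124 than in KO-2070 and KO-2126, while Tgfbr1 was lowest in KO-2079 and highest in KO-2126.

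Markers of other cell types were lower in Het and KO on average for some types and higher for others. The summed level of 8 macrophage markers was 445 to 1826 CPM in WT, 238 to 365 CPM in Het and 140 to 520 CPM in KO. All 8 were lower in Het and KO at an unadjusted edgeR p under 0.05. At that threshold 16.5% of all genes were lower and 11.7% higher, and without WT-2404 6.33% were lower. Without WT-2404 the macrophage sum in WT was 445 to 705 CPM. All 8 macrophage markers still had a log2 fold change below 0, but 0 were at that threshold. In the KO group the macrophage sum was 433 CPM in KO-2079 and 520 CPM in KO-2124, but 140 CPM in KO-2070 and 158 CPM in KO-2126. This was the same split as for Tgfb1, Tgfb3, Tgfbr2 and Tgfbi. It was not particular to macrophages. The fibroblast and stellate sum was 349 CPM in KO-2079 and 448 CPM in KO-2124, against 299 CPM in KO-2070 and 275 CPM in KO-2126. The acinar sum split in reverse, at 505760 and 265835 CPM against 723188 and 811801 CPM in the same order. The lymphoid, ductal, endothelial, islet and adipocyte sums did not split in this way. The 10 fibroblast and stellate markers summed to 338 to 577 CPM in WT, 316 to 338 CPM in Het and 275 to 448 CPM in KO, with 5 of 10 lower, and 2 without WT-2404. The 7 ductal markers summed to 757 to 1240 CPM, 351 to 620 CPM and 360 to 613 CPM, with 6 of 7 lower, and 5 without WT-2404. The 7 lymphoid markers summed to 12.0 to 29.5 CPM, 5.88 to 6.25 CPM and 2.12 to 17.0 CPM, with 4 of 7 lower and Cd3d, Cd8a and Ms4a1 at 0 in some libraries. The 12 acinar markers ran the other way, at 28190 to 501864 CPM in WT, 507032 to 728117 CPM in Het and 265835 to 811801 CPM in KO, with 0 of 12 at that threshold, and 9 higher without WT-2067. The 5 endothelial markers summed to 77.3 to 121 CPM, 107 to 125 CPM and 79.5 to 155 CPM, with 0 lower and 1 higher. Islet markers summed to 444 to 5412 CPM in WT, 4711 to 9342 CPM in Het and 3404 to 8060 CPM in KO, and adipocyte markers to 0.820 to 8.89 CPM, 6.62 to 14.7 CPM and 3.04 to 11.9 CPM. Without WT-1860 the lymphoid count was 1, against 13.1% of all genes lower. There 3 endothelial and 5 islet markers were higher, as were 1030 of all 13889 genes. Without WT-2067, where 2392 of all 14172 genes were higher, all 4 adipocyte markers were higher. No marker was at 0 in all libraries, none passed the adjusted test, and the part of these cell types in the members' levels was not tested.

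**Figure D4:**
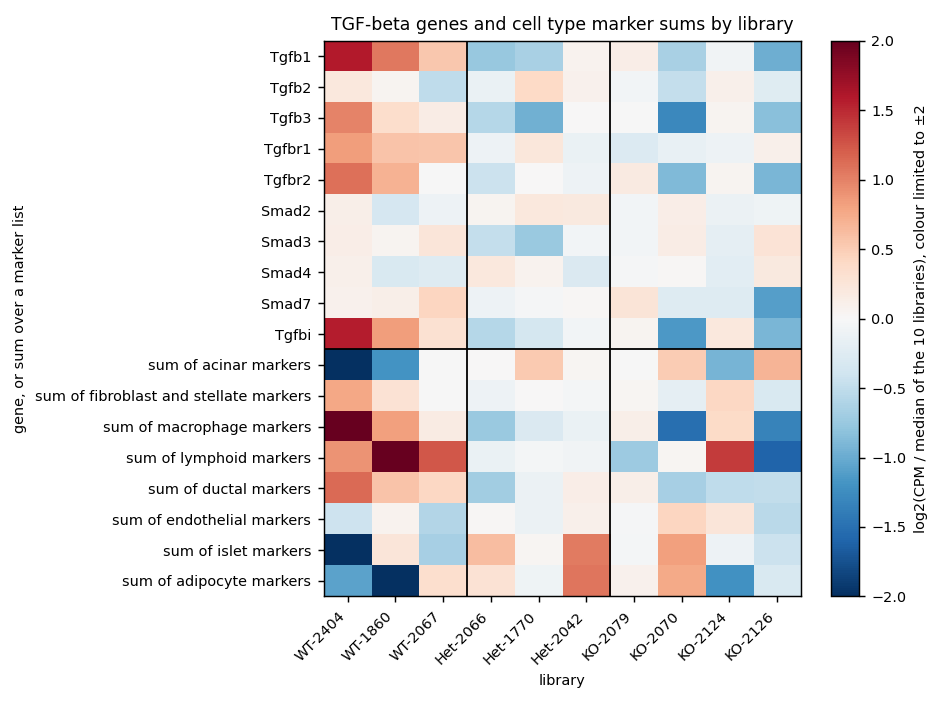
Colour gives log2 of the CPM of each gene, or of the sum over each cell type's markers, divided by its median over the 10 libraries, limited to ±2, with a row per gene or sum and a column per library. Tgfb1, Tgfb3, Tgfbr1, Tgfbr2 and Tgfbi are reddest in WT-2404. There the macrophage (1826 CPM), ductal (1240 CPM) and fibroblast and stellate (577 CPM) sums are also highest, and the acinar sum (28190 CPM) is lowest.

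Genes that act around the members were counted by role, in Het and KO against WT. None passed the adjusted test in any list, so the counts below are at an unadjusted edgeR p under 0.05, where 16.5% of all genes were lower and 11.7% higher. Of 10 genes of ligand latency and activation, 6 were lower and 0 higher, with a median log2 fold change of -0.71 against 0.02 for all genes. Without WT-2404, where 6.33% of all genes were lower, 3 of the 10 were. Itgav, an integrin subunit that releases latent TGF-beta, had a log2 fold change of -0.78 (SE 0.19), and all its floxed libraries lay below all WT libraries. Lrrc32 (GARP), which holds latent ligand at the cell surface, had -1.15 (SE 0.33), and Thbs1, a matrix protein known to activate the ligand, -1.22 (SE 0.34). The latent binding proteins Ltbp3 and Ltbp4 had 0.08 (SE 0.17) and 0.18 (SE 0.21), and Furin, the protease that cuts the ligand precursors, 0.17 (SE 0.25). The co-receptors Tgfbr3 and Eng and the type I receptor Acvrl1 had -0.25, -0.25 and -0.31, and 0 of the 3 were at the unadjusted threshold.

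Of 11 negative regulators 4 were lower and 2 higher, with a median of -0.26, and without WT-2404 2 were lower and 0 higher. Pmepa1, which keeps SMADs from the receptor, was at 37.6 ± 13.5 CPM (SD, n = 3) in WT, 11.7 ± 5.64 CPM (SD, n = 3) in Het and 10.1 ± 5.67 CPM (SD, n = 4) in KO. Its log2 fold change was -1.78 (SE 0.39, adjusted p 0.0597, edgeR) with separate ranges. The co-repressor genes Tgif1 and Skil had -0.74 (SE 0.16) and -0.47 (SE 0.17), also with separate ranges. On the other side were Smad6, an inhibitory SMAD that acts mostly on BMP signals, with 0.62 (SE 0.26), and the SMAD phosphatase Ppm1a with 0.58 (SE 0.21). Bambi, a decoy receptor, had 0.21 (SE 0.30). Of 8 adaptors and SMAD partners 2 were lower and 0 higher (0 and 0 without WT-2404), Tgfb1i1 with -0.63 (SE 0.21) and the acetyltransferase Ep300 with -0.39 (SE 0.16). The others named by rank were the ubiquitin ligase Trim33 with -0.09 (SE 0.16), the receptor anchor Zfyve9 with 0.46 (SE 0.32), and the kinase Map3k7 and its partner Tab1 with 0.05 (SE 0.16) and 0.13 (SE 0.18).

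Of 19 genes known to respond to TGF-beta, 16 were lower and 0 higher, all 19 had a log2 fold change below 0, and 9 had separate ranges, against 5.84% of all genes. The median was -1.42. Without WT-2404, 12 were lower, 0 higher and all 19 below 0, with a median of -1.13. Timp1, an inhibitor of matrix proteases, was at 30.6 ± 22.2 CPM (SD, n = 3) in WT, 5.08 ± 0.39 CPM (SD, n = 3) in Het and 3.34 ± 3.10 CPM (SD, n = 4) in KO, a log2 fold change of -2.86 (SE 0.55, adjusted p 0.0597, edgeR). Col1a1, a chain of type I collagen, was at 605 ± 433 CPM (SD, n = 3), 134 ± 70.3 CPM (SD, n = 3) and 102 ± 73.9 CPM (SD, n = 4), with -2.37 (SE 0.52, adjusted p 0.0597, edgeR). The cell-cycle inhibitor Cdkn1a had -1.56 (SE 0.33). These genes also respond to other signals, and matrix genes mark fibroblasts. In the activin and BMP branch, 17 of 20 genes were tested (Smad9, Nog and Gdf11 had too few counts), with 2 lower (1 without WT-2404), 0 higher and a median of -0.06. Without WT-2067, where 19 were tested, 3 were lower and 4 higher, against 2710 and 2392 of all 14172 genes. The 2 were the activin subunit genes Inhba, with -1.88 (SE 0.70) at under 1 CPM in every group, and Inhbb, with -0.69 (SE 0.31). The type I receptor Acvr1 had -0.44 (SE 0.26), Acvr2a 0.43 (SE 0.25), the ligand Bmp4 0.67 (SE 0.33) and Bmpr1b 0.83 (SE 0.43).

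**Figure D5:**
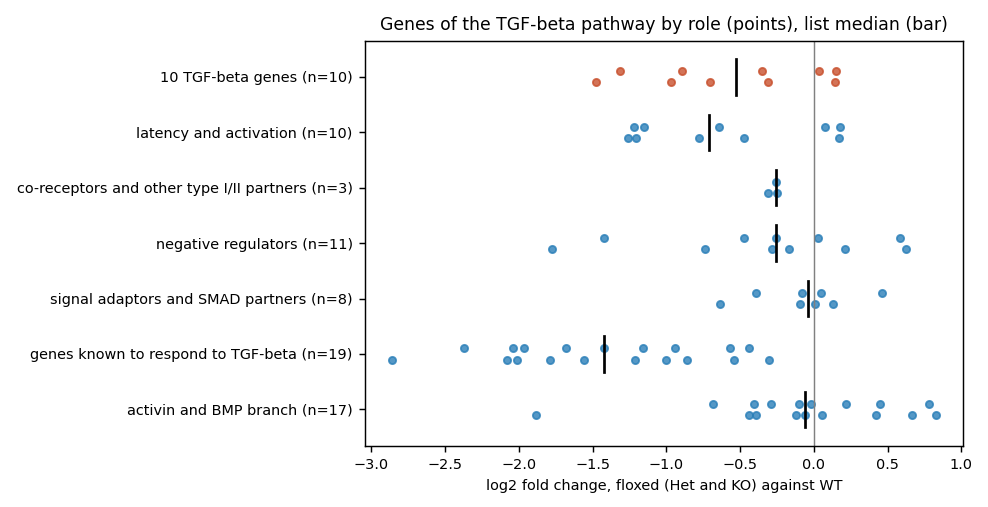
The edgeR log2 fold change of Het and KO against WT (horizontal axis) for each tested gene (points) of the 10 members and of the lists by role, with the list's median (bar). The genes known to respond to TGF-beta all lie below 0 with a median of -1.42, while the activin and BMP branch lies around 0 with a median of -0.06.

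For each member the 3 genes whose log2 CPM followed it most closely over the 10 libraries are named as a description, with Pearson's r between 0.835 and 0.997. For Tgfb1 they were Oas1a (r = 0.99), Msn (r = 0.98) and St6gal1 (r = 0.98), for Tgfb3 Fyb (r = 0.98), Acox2 (r = 0.98) and Evl (r = 0.98), and for Tgfb2 Tmem100 (r = 0.91), Wasf3 (r = 0.90) and Pla2r1 (r = 0.89). For Tgfbr1 they were 2310022A10Rik (r = 0.96), Fam168a (r = 0.95) and Sec23a (r = 0.94), and for Tgfbr2 Aldh1a2 (r = 0.99), Slfn2 (r = 0.99) and the macrophage marker C1qb (r = 0.99). For Tgfbi they were Unc93b1 (r = 0.997), Spi1 (r = 0.99), a transcription factor of myeloid cells, and Igfbp4 (r = 0.99). Smad2 was followed by Thoc3 (r = 0.91), AI464131 (r = 0.89) and Ndufc2 (r = 0.88), Smad3 by Med23 (r = 0.87), Usb1 (r = 0.84) and Nptx2 (r = 0.84), and Smad4 by Fer (r = 0.94), Ankle2 (r = 0.93) and Wdr36 (r = 0.93). Smad7 was followed by Kcne4 (r = 0.95), Sapcd2 (r = 0.93) and Traf1 (r = 0.89). Without WT-2404 the r of these pairs lay between 0.84 and 0.99. The values of a pair share the libraries, their groups, their depth and the scaling.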

How the data were processed

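The values are raw counts deposited by the authors, 1 whole number for each gene symbol and mouse. All 10 columns were matched to samples by genotype and mouse number. The submitters' processing notes name DRAGEN, STAR, Cufflinks and the build mm10, without roles or versions, and the counting tool, its annotation and the use of strand are not given in the sources used here. Per the labels' protocols, frozen tissue was pulverised and RNA isolated with a column kit; how Cre was induced is not given in the sources used here. A further part of the genotype, shared by all groups, is not reported here, and 1 more WT mouse that the labels count was not analysed here.

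The 2 rows naming no gene were left out: reads outside genes were 2.59% to 8.71% and ambiguous reads 0.101% to 0.584% of all counts per library. Genes were filtered with filterByExpr (minimum count 10), scaled by TMM and fitted over all 10 libraries with edgeR 4.0.16 (robust quasi-likelihood test, two-sided, R 4.3.3, limma 3.58.1), with p-values adjusted over 13688 genes. At this depth the upper limit for a gene at 0, 3 counts, stands at 0.0501 to 0.395 CPM. Alternatives were DESeq2 1.42.0, other scalings, no filter, fewer libraries and a pseudocount of 2 in the ratios. Counts of the pathway and marker lists without each WT library were added after seeing the data. The script was tested on simulated counts. Summaries used Python 3.11.15 with pandas 2.3.3 and numpy 2.4.6. Gene positions come from GENCODE M21 on GRCm38.

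The labels give mouse numbers but no litter, batch or date, so p-values measure the spread between these mice. The members and lists were chosen with earlier results of these data known. Named genes are all 10 members, and of each list up to 3 genes higher and 3 lower, ranked by unadjusted p in Het and KO against WT, and for likeness the 3 genes of highest r.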

Additional observations from a re-analysis of the deposited data

How the results depend on the processing

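Members past edgeR's adjusted threshold numbered 0 in each comparison, and 0 under RLE size factors, with enzyme counts left out of scaling and with no filter. In the 3 comparisons between 2 groups they were also 0 with only those groups in the fit. With DESeq2 they numbered 3 in KO against WT, 3 in Het against WT and 5 in Het and KO against WT. All were lower, against 5.27%, 1.93% and 8.5% of all genes called lower. With library size alone, which moved the median log2 fold change of all genes to -1.17, -1.36 and -1.26, they numbered 5, 6 and 9, all lower, against 20.8%, 22.9% and 52% of all genes called lower. Leaving out a library gave 0 to 4, 0 to 2 and 0 to 5. The number was highest each time without WT-2067, where 7.42%, 4.03% and 11.1% of all genes were called lower. In the last comparison the number was 3 without KO-2124 (2.92% of all genes called lower) and 1 without KO-2079 (0.352%). WT-2067 had the highest enzyme share of the WT libraries, 71.4%, and KO-2124 the lowest of the Het and KO libraries, 62.3%. Leaving out either one thus widens the difference in enzyme share between WT and the other groups. Without WT-2404 the unadjusted counts fell from 5, 6 and 5 to 3, 4 and 3. The unadjusted share of all genes lower fell too, from 13.9%, 11.6% and 16.5% to 5.29%, 3.61% and 6.33%. In Het against WT the count was 3 without Het-2066, against 6.56% of all genes. The causes were not tested.

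Against WT, library size alone turned Smad2 to -1.23 and Smad4 to -1.20 in KO, Tgfb2 to -1.34, Smad2 to -1.20 and Smad4 to -1.32 in Het, and Tgfb2 to -1.35, Smad2 to -1.21 and Smad4 to -1.26 in both, close to the shift of all genes. In KO against Het it turned Tgfbr1 to 0.061, Tgfbr2 to 0.17, Smad4 to 0.12 and Tgfbi to 0.31, the fit of only these groups turned Smad4 to 0.0033 and Tgfbi to 0.015, and no filter turned Tgfbi to 0.0036. Leaving out a library turned members near 0, with ranges in KO against WT of -0.27 to 0.065 for Tgfb2 and -0.051 to 0.18 for Smad2, in Het against WT of -0.0049 to 0.34 for Tgfb2, and in both against WT of -0.14 to 0.20 for Tgfb2. In KO against Het they were -0.10 to 0.40 for Tgfb1, -0.16 to 0.36 for Tgfb3, -0.18 to 0.013 for Tgfbr1, -0.34 to 0.022 for Tgfbr2, -0.14 to 0.11 for Smad4 and -0.25 to 0.18 for Tgfbi. Tgfb1, Tgfb3, Tgfbr1, Tgfbr2 and Tgfbi kept their direction against WT in every alternative run.

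The ratio of Tgfb2 to Tgfb1 differed by 1.39 to 1.60 with a library left out, and lost its call without any WT library, where the smallest p allowed is 0.0278. That of Tgfb3 to Tgfb1 ran from 0.38 to 0.55, passing without KO-2070 (0.55, adjusted exact p 0.0238), and that of Smad7 to Smad3 from -0.24 to 0.10, turning without KO-2126. Adding 2 counts changed no ratio's call. No paired analysis was possible because the groups share no mouse number. Depth limits Tgfb2 most, with as few as 19 counts in a library.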
